A study of Mus musculus with 24 samples.

Results

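The mRNAs of the SR and hnRNP splicing regulators were examined in mouse cortex at postnatal day 7. Members were all probe sets annotated with 1 gene symbol that began with Srsf, Hnrnp, Celf, Mbnl, Rbfox or Elavl, together with those of Tra2a, Tra2b, Ptbp1, Ptbp2, Nova1 and Nova2. The rule used names only and no measured value, but it was chosen with earlier results of these data known. It found 165 of the 45037 probe sets of the array, which stand for 50 of 18193 genes. By role these were 12 genes of SR proteins and Tra2, 18 hnRNP genes, and 20 genes of the neuronal and tissue-specific families Celf, Elavl, Mbnl, Nova, Ptbp and Rbfox.

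The cerebral cortex, freed of white matter, was taken from male mice of the FVB strain, and RNA was measured on 24 Affymetrix mouse arrays, 6 in each of 4 groups. The groups were polyribosomal and total RNA of mice lacking Fmr1 (Fmr1 KO, here KO), and polyribosomal and total RNA of their wild-type (WT) littermates. Fmr1 encodes FMRP, an RNA-binding protein found on polyribosomes that is silenced in fragile X syndrome. The labels call the mice Fmr1 null and name no allele. Each lysate was a pool of 2 mice and had been cleared at 20000 g, so total RNA means RNA of this cleared lysate. Polyribosomal RNA was pooled from gradient fractions 10 to 13 of 16, where mRNAs carry 6 or more ribosomes. All tissue was taken up in buffer with the elongation inhibitor cycloheximide, in both genotypes.

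SR proteins bind exonic enhancers through RNA recognition motifs and recruit the spliceosome through a domain rich in arginine and serine. The hnRNPs coat nascent transcripts and often act against SR proteins at the same exons. In developing neurons the Nova, Rbfox, Celf, Elavl, Mbnl and Ptbp families set the neuronal splicing pattern, and several of them also act on mRNA stability, transport or translation in the cytoplasm. Many genes of splicing regulators make more than 1 transcript, including forms with a premature stop codon through which the protein limits its own level. The array reads mRNA, not protein or splicing.

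Values are log2 signals. The array medians ran from 3.169 to 3.199, and 38.8% to 40.0% of an array's probe sets reached a value of 4, used here as the limit of a dim signal. Arrays of the same group correlated at 0.991 to 0.998 (Pearson's r). The polyribosomal arrays of KO lysate 5 and WT lysate 4 had the lowest mean r with their group. Fmr1 was lower in all KO arrays than in all WT arrays at each of its 3 probe sets. Its probe set with the highest mean averaged 6.19 ± 0.48 in KO and 9.90 ± 0.21 in WT polyribosomal RNA, and 6.38 ± 0.16 in KO and 9.66 ± 0.18 in WT total RNA (SD, n = 6 each, two-sided exact permutation p = 0.00216 in both, the smallest possible). Since this is bulk tissue, fewer cells of a type and less RNA per cell cannot be told apart. All 5 measured excitatory neuron markers and all 6 interneuron markers were above 4, and none of the 5 measured hindbrain markers was. No marker of any list passed between genotypes (limma). In total RNA both tested microglia markers had an unadjusted p under 0.05, and the mean of that list ran from 4.20 to 4.64 in KO and from 4.52 to 4.80 in WT arrays. Of the 6 astrocyte markers 1 had an unadjusted p under 0.05 there, with a list mean of 8.04 to 8.49 in KO and 8.09 to 8.45 in WT arrays. The mean of the choroid plexus list varied within each group, from 2.96 to 5.43 in KO and 3.17 to 5.46 in WT polyribosomal RNA, and from 2.84 to 5.03 in KO and 3.07 to 5.10 in WT total RNA. The part of these markers in the results was not tested.

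Of the member probe sets 129 were at least 4 on all 24 arrays and 22 were below 4 on all. A probe set was tested where it reached 4 on at least 6 of the arrays compared, and 26 member probe sets were tested in no comparison. Mbnl3, a muscleblind gene on the X chromosome, had no tested probe set, and the one with its highest mean lay between 2.19 and 2.67 over the 24 arrays. A gene is represented below by its tested or untested probe set with the highest mean over the 24 arrays, and no level is set against that of another probe set. For 19 genes that probe set is of a kind (_x_at, _s_at or _a_at) that can also bind related transcripts.

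The first question was how these mRNAs are distributed between the heavy polyribosomal pool and the lysate. More of them were higher than lower in polyribosomal RNA. In KO lysates 22 of 49 tested genes rose, 7 fell and 20 did not pass the test (limma with lysate as a block, Benjamini-Hochberg adjusted p under 0.05). The background was broad, since 38.7% of all genes rose and 28.2% fell in KO. In WT lysates 23 of 48 rose, 7 fell and 18 did not pass, where 37.5% of all genes rose and 28.4% fell. Without KO lysate 2 or 6 the count lower in KO was 4. The share of members that rose was 44.9% in KO and 47.9% in WT, and the share that fell 14.3% and 14.6%. The median log2 difference over members was 0.15 in KO and 0.18 in WT, against 0.09 over all genes in each.

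Counted by probe set, 70 of 137 members rose and 20 fell in KO, against 37.2% higher and 28.7% lower over the array. In WT 73 of 134 rose and 18 fell, against 36.2% higher and 29.1% lower. Of the tested member probe sets 3 in KO and 2 in WT had a mean under 4 in only 1 of the RNA kinds. The KO and WT comparisons share no array. Over the 48 genes tested in both, 21 rose in both and 7 fell in both, 18 passed in neither, and none was called in opposite directions. Hnrnph1 and Hnrnpm stood at 0.15 and 0.14 in KO (limma adjusted p = 0.185 and 0.293) and rose by 0.23 and 0.32 in WT (adjusted p = 0.0468 and 0.016). The WT call of Hnrnph1 was lost without lysate 1, 2, 3, 5 or 6, and that of Hnrnpm without lysate 6. The sign was the same for 43 genes, and Pearson's r of the 2 sets of differences was 0.966 across genes, which are not independent replicates. In 19 genes in KO and 20 in WT the 6 polyribosomal arrays did not overlap the 6 total arrays. Neither this count nor the shared calls, signs and r were taken over all genes here. They are therefore not read as particular to the members.

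**Figure D1:**
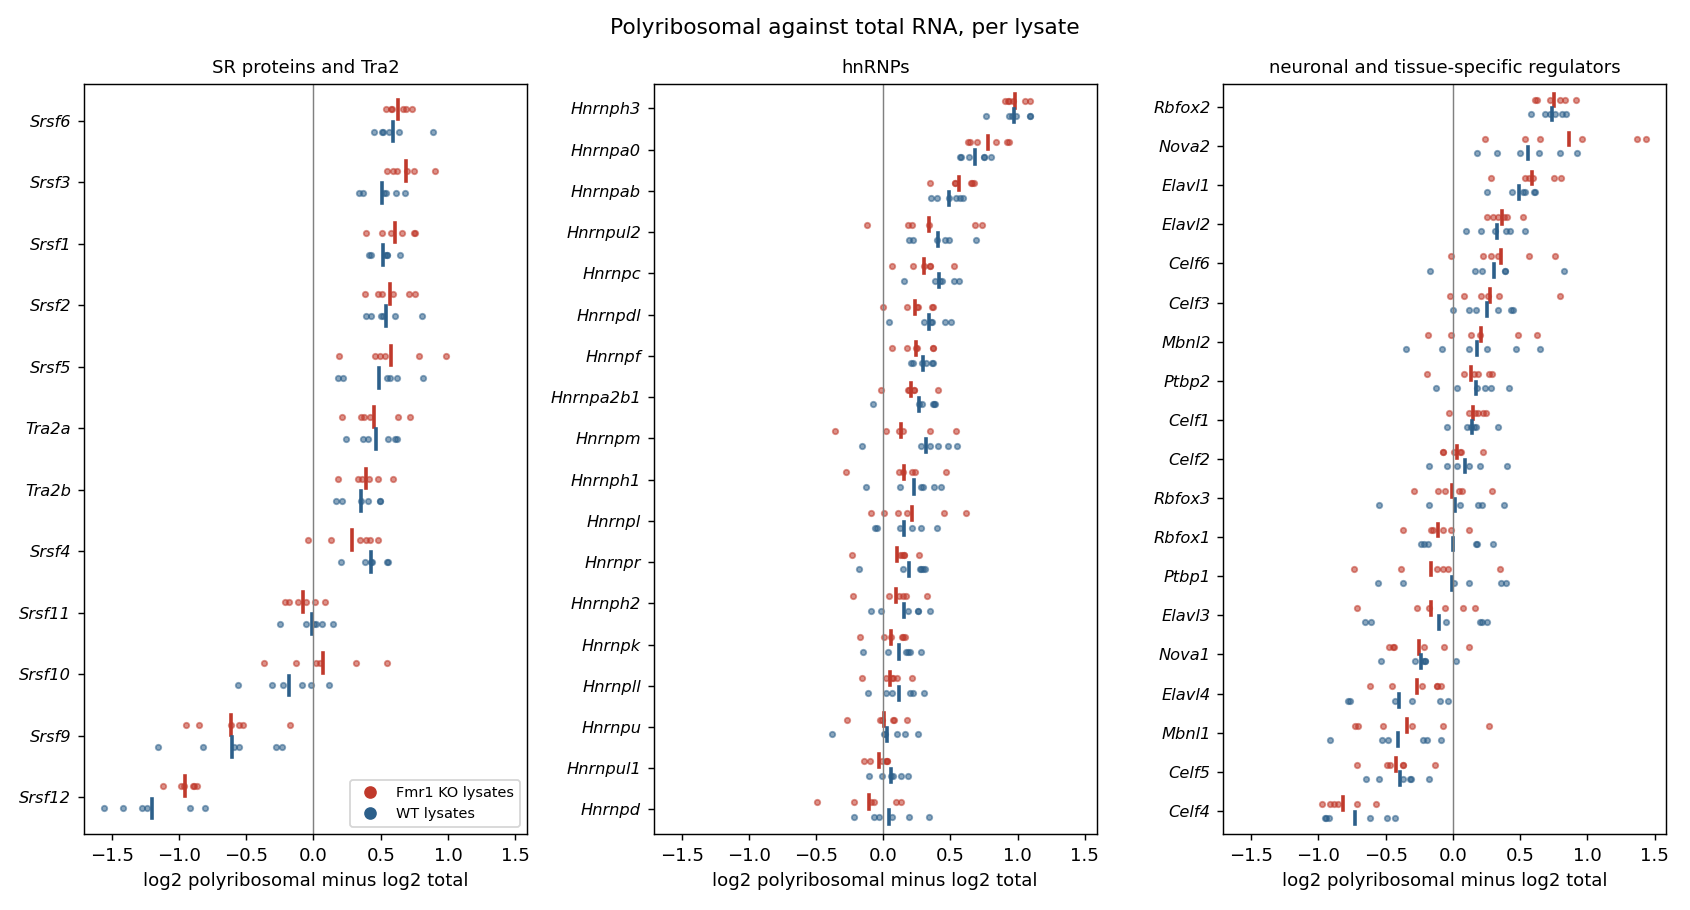
Log2 polyribosomal minus log2 total value of each lysate (points, 6 per genotype) for the 49 tested genes, with the mean as a vertical bar, KO above WT in each row. Most Srsf and several hnRNP genes lie right of 0, Srsf9, Srsf12 and Celf4 lie left of it in all 12 lysates.

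In the SR group 8 of 12 genes (66.7%) rose and 2 (16.7%) fell in each genotype, with a median of 0.42 in KO and 0.45 in WT. Over all genes 38.7% rose and 28.2% fell in KO, and 37.5% rose and 28.4% fell in WT. The rises were those of Srsf1 to Srsf6, Tra2a and Tra2b, between 0.29 for Srsf4 and 0.69 for Srsf3 in KO, and between 0.35 for Tra2b and 0.59 for Srsf6 in WT. Srsf10, which represses splicing when dephosphorylated, and Srsf11 did not pass at the probe set with their highest mean. Srsf10 stood at 0.07 in KO and -0.18 in WT, and Srsf11 at -0.08 and -0.01 (limma adjusted p between 0.129 and 0.901). The KO call of Srsf4 was lost without lysate 4 or 6.

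Srsf3 (1416150_a_at, chromosome 17), the smallest SR protein and an adapter of mRNA export, had a lowest, median and highest value of 12.30, 12.54 and 12.76 in KO polyribosomal RNA, against 11.72, 11.86 and 11.93 in KO total RNA. In WT it had 12.18, 12.42 and 12.50 in polyribosomal RNA, against 11.75, 11.87 and 11.94 in total RNA. All polyribosomal arrays of a genotype were above all its total arrays. The rise was 1.61-fold in KO (log2 0.69, SE 0.079, limma adjusted p = 1.7e-05) and 1.43-fold in WT (log2 0.51, SE 0.083, adjusted p = 0.000246).

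Srsf6 (1448454_at, chromosome 2), an enhancer-binding SR protein, had 10.45, 10.70 and 10.90 in KO polyribosomal RNA, against 9.91, 10.04 and 10.22 in KO total RNA. The WT values were 10.45, 10.66 and 10.94 in polyribosomal RNA, against 9.89, 10.02 and 10.32 in total RNA. Again the RNA kinds did not overlap. Srsf6 rose by 1.55-fold in KO (log2 0.63, SE 0.074, limma adjusted p = 1.91e-05) and by 1.51-fold in WT (log2 0.59, SE 0.086, adjusted p = 0.000107).

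Srsf2 (1427504_s_at, chromosome 11), a protein of nuclear speckles, had 10.70, 10.96 and 11.11 in KO polyribosomal RNA, against 10.32, 10.36 and 10.47 in KO total RNA. In WT the values were 10.68, 10.84 and 11.04 in polyribosomal RNA, against 10.18, 10.31 and 10.43 in total RNA. Polyribosomal arrays were higher without overlap, by 1.49-fold in KO (log2 0.57, SE 0.081, limma adjusted p = 7.93e-05) and 1.46-fold in WT (log2 0.54, SE 0.085, adjusted p = 0.000191). Srsf1 (1428099_a_at, chromosome 11), the best-known activator of splice sites among SR proteins, had 11.71, 11.97 and 12.10 in KO polyribosomal RNA, against 11.20, 11.32 and 11.39 in KO total RNA. Its WT values were 11.68, 11.87 and 11.98 in polyribosomal RNA, against 11.24, 11.30 and 11.43 in total RNA. Here too the groups were apart, with a rise of 1.52-fold in KO (limma adjusted p = 4.88e-05) and 1.43-fold in WT (adjusted p = 0.000144).

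Srsf12 and Srsf9 were the members of the SR group that fell. Srsf12 (1437168_at, chromosome 4), an SR-like protein known to counteract SR proteins, had 8.57, 8.82 and 8.87 in KO polyribosomal RNA, against 9.69, 9.73 and 9.76 in KO total RNA. In WT it had 8.004, 8.51 and 8.88 in polyribosomal RNA, against 9.56, 9.72 and 9.95 in total RNA. No polyribosomal array reached any total array. The fall was 1.94-fold in KO (log2 -0.95, SE 0.076, limma adjusted p = 1.06e-06) and 2.30-fold in WT (log2 -1.20, SE 0.11, adjusted p = 3.25e-06). Srsf9 (1417727_at, chromosome 5), a small SR protein, had 8.19, 8.64 and 8.81 in KO polyribosomal RNA, against 8.94, 9.20 and 9.36 in KO total RNA. Its WT values were 8.12, 8.62 and 8.94 in polyribosomal RNA, against 9.06, 9.20 and 9.33 in total RNA. The groups were apart in both genotypes, and the fall was 1.53-fold in KO (limma adjusted p = 0.000276) and 1.52-fold in WT (adjusted p = 0.000977).

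**Figure D2:**
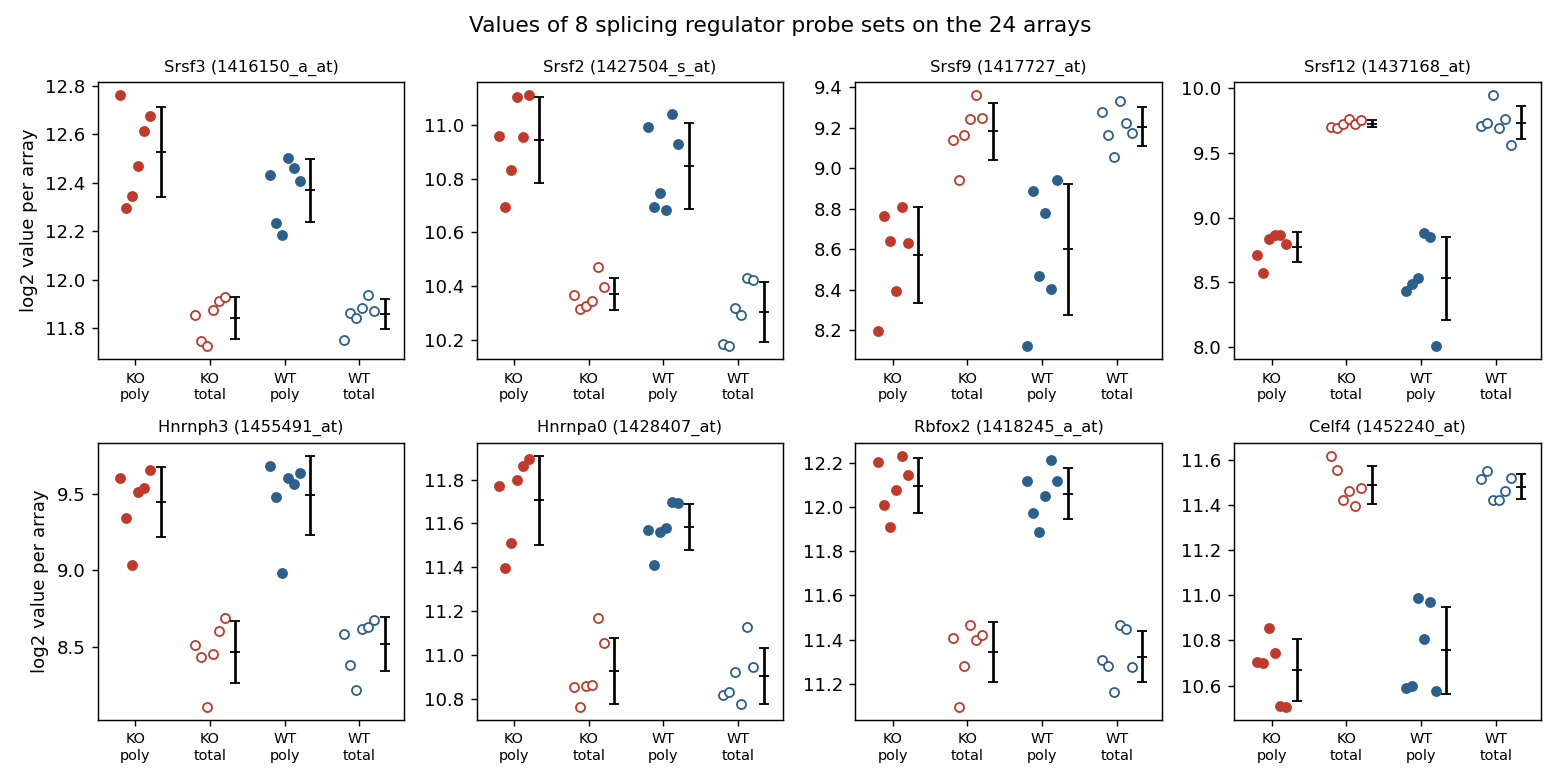
Log2 values of 8 probe sets on each of the 24 arrays, with polyribosomal arrays as filled points left of total arrays as open points, KO in red left of WT in blue, and mean with SD as a black bar beside each group (n = 6). Polyribosomal and total arrays do not overlap in any of the 8, with Srsf9, Srsf12 and Celf4 lower and the others higher in polyribosomal RNA.

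Among the hnRNPs, 8 of 18 genes rose in KO and 10 of 18 in WT, which is 44.4% in KO and 55.6% in WT, against 38.7% and 37.5% of all genes. The KO share is near that background. With 1 probe set per gene none fell in either genotype (limma), and none with a value below 0 had an unadjusted p under 0.05. In KO 16 of the 18 values were above 0, and in WT all 18, with a median of 0.18 in KO and 0.25 in WT. Counted by probe set, 3 of 51 fell in KO and 2 of 49 in WT (limma), against 28.7% and 29.1% over the array. The KO count includes the Hnrnpu probe set 1434390_at, which passed the filter through total RNA only. At the probe set with their highest mean, Hnrnpk, which binds runs of C, Hnrnpu, a nuclear scaffold protein, and Hnrnpd, Hnrnpul1 and Hnrnpll did not pass, with values between -0.11 and 0.06 in KO and between 0.03 and 0.12 in WT. The Hnrnpll probe set 1425255_s_at stood at 0.54 in KO and 0.51 in WT, and averaging its tested probe sets called Hnrnpll in both. Hnrnpk stood at 0.21 in KO and 0.31 in WT at 1423684_at, and was called in WT without the _x_at, _s_at and _a_at probe sets. The KO calls of Hnrnpul2, without lysate 1 or 2, and of Hnrnpdl, without lysate 1, 2, 4 or 6, were lost.

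Hnrnph3 (1455491_at, chromosome 10), a member of the H and F family that binds runs of G, had 9.04, 9.52 and 9.65 in KO polyribosomal RNA, against 8.11, 8.48 and 8.69 in KO total RNA. In WT it had 8.98, 9.58 and 9.68 in polyribosomal RNA, against 8.22, 8.60 and 8.68 in total RNA. The arrays of the RNA kinds were fully apart. The rise was 1.97-fold in KO (log2 0.98, SE 0.074, limma adjusted p = 7.35e-07) and 1.96-fold in WT (log2 0.97, SE 0.082, adjusted p = 1.86e-06).

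Hnrnpa0 (1428407_at, chromosome 13), which binds AU-rich elements, had 11.39, 11.78 and 11.89 in KO polyribosomal RNA, against 10.76, 10.86 and 11.17 in KO total RNA. The WT values were 11.41, 11.57 and 11.70 in polyribosomal RNA, against 10.78, 10.87 and 11.13 in total RNA. Groups did not overlap, and the rise was 1.72-fold in KO (limma adjusted p = 7.09e-06) and 1.60-fold in WT (adjusted p = 2.1e-05). Hnrnpab (1453849_s_at, chromosome 11), which takes part in mRNA transport in neurons, had 12.70, 13.06 and 13.22 in KO polyribosomal RNA, against 12.27, 12.46 and 12.56 in KO total RNA. Its WT values were 12.64, 12.92 and 13.18 in polyribosomal RNA, against 12.28, 12.40 and 12.59 in total RNA. Polyribosomal arrays were again all higher, by 1.48-fold in KO (limma adjusted p = 6.77e-05) and 1.41-fold in WT (adjusted p = 0.000229).

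Hnrnpc (1460240_a_at, chromosome 14), which binds runs of U in nascent transcripts, had 10.90, 11.08 and 11.23 in KO polyribosomal RNA, against 10.60, 10.80 and 10.85 in KO total RNA. The WT values were 10.92, 11.25 and 11.36 in polyribosomal RNA, against 10.66, 10.79 and 10.91 in total RNA. The groups lay close to each other but did not overlap. Hnrnpc rose by 1.23-fold in KO (log2 0.30, SE 0.082, limma adjusted p = 0.00668) and by 1.33-fold in WT (log2 0.41, SE 0.085, adjusted p = 0.00119).

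In the neuronal and tissue-specific families 6 of 19 tested genes rose and 5 fell in KO, and 5 of 18 rose and 5 fell in WT, with medians of 0.03 in KO and 0.05 in WT. These shares, 31.6% higher and 26.3% lower in KO and 27.8% each way in WT, were near or below those over all genes. Rbfox2, Nova2, Elavl1, Elavl2 and Celf6 rose in both genotypes, and Celf4, Celf5, Elavl4, Mbnl1 and Nova1 fell in both. Celf3, whose values lay near the dim limit, was tested in KO only and rose there by 0.28 (limma adjusted p = 0.0345), a call lost without any of lysates 1 to 5. The calls of Nova1, at -0.25 in KO and -0.24 in WT, were lost without lysate 2, 3, 5 or 6 in either genotype, and the WT call of Celf6 without lysate 2, 3, 4 or 6.

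Rbfox2 (1418245_a_at, chromosome 15), a regulator of neuronal and muscle exons, had 11.91, 12.11 and 12.23 in KO polyribosomal RNA, against 11.10, 11.40 and 11.47 in KO total RNA. In WT the gene had 11.89, 12.08 and 12.21 in polyribosomal RNA, against 11.16, 11.30 and 11.47 in total RNA. No arrays overlapped, and the rise was 1.68-fold in KO (limma adjusted p = 7.78e-06) and 1.66-fold in WT (adjusted p = 1.16e-05). Nova2 (1439192_at, chromosome 7), the Nova protein most prominent in cortex, had 6.05, 6.38 and 6.99 in KO polyribosomal RNA, against 5.42, 5.58 and 5.90 in KO total RNA. Its WT values were 5.62, 6.17 and 6.30 in polyribosomal RNA, against 5.29, 5.56 and 5.79 in total RNA. The arrays were apart in KO and overlapped in WT. The rise was 1.82-fold in KO (log2 0.86, SE 0.15, limma adjusted p = 0.000315) and 1.48-fold in WT (log2 0.56, SE 0.11, adjusted p = 0.000746). It was seen in 6 of 6 lysates of each, which in WT was a condition for naming the gene.

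Elavl1 (1452858_at, chromosome 8) encodes HuR, the ubiquitous Hu protein, which stabilises AU-rich mRNAs. It had 9.23, 9.54 and 9.65 in KO polyribosomal RNA, against 8.81, 8.94 and 8.98 in KO total RNA. WT arrays had 9.21, 9.42 and 9.62 in polyribosomal RNA, against 8.78, 8.92 and 9.02 in total RNA. The groups did not overlap, and Elavl1 rose by 1.51-fold in KO (limma adjusted p = 0.000104) and 1.41-fold in WT (adjusted p = 0.000315). Elavl2 (1421882_a_at, chromosome 4), a neuronal Hu protein, had 12.10, 12.16 and 12.32 in KO polyribosomal RNA, against 11.78, 11.81 and 11.85 in KO total RNA. Its WT values were 12.02, 12.16 and 12.37 in polyribosomal RNA, against 11.78, 11.82 and 11.92 in total RNA. It was likewise higher without overlap, by 1.29-fold in KO (limma adjusted p = 0.00118) and 1.26-fold in WT (adjusted p = 0.00551). This probe set is of a kind that can bind related transcripts. Of the other tested Elavl2 probe sets 1421881_a_at and 1454454_at rose in both genotypes, and 1421883_at stood at -0.13 in KO and -0.10 in WT (limma adjusted p = 0.193 and 0.342). Without the _x_at, _s_at and _a_at probe sets the gene was called in neither genotype.

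Elavl4 (1452894_at, chromosome 4), the neuronal Hu protein HuD, fell at the probe set with its highest mean. There it had 10.49, 10.73 and 10.85 in KO polyribosomal RNA, against 10.80, 10.98 and 11.11 in KO total RNA. Among WT arrays it had 10.20, 10.61 and 10.95 in polyribosomal RNA, against 10.92, 10.98 and 11.11 in total RNA. The ranges overlapped in both genotypes, while each of the 12 lysates was lower in its polyribosomal array, as was required of WT for naming. The fall was 1.21-fold in KO (log2 -0.27, SE 0.092, limma adjusted p = 0.0224) and 1.32-fold in WT (log2 -0.40, SE 0.11, adjusted p = 0.00924). Without KO lysate 2 or 6 the KO adjusted p was 0.078 or 0.082 (limma). Its other tested probe sets were less uniform. The probe set 1428741_at stood at -0.29 in KO and -0.25 in WT (limma adjusted p = 0.0296 and 0.106), and 1450258_a_at at 0.23 in KO and 0.16 in WT (adjusted p = 0.107 and 0.351). Averaged over its tested probe sets, Elavl4 was called in neither genotype, at -0.11 in KO and -0.17 in WT (limma adjusted p = 0.326 and 0.251).

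Celf4 (1452240_at, chromosome 18), a neuronal regulator whose loss causes seizures in mice, had 10.50, 10.70 and 10.85 in KO polyribosomal RNA, against 11.40, 11.47 and 11.62 in KO total RNA. The WT values were 10.58, 10.70 and 10.99 in polyribosomal RNA, against 11.42, 11.49 and 11.55 in total RNA. The arrays were far apart, and the fall was 1.76-fold in KO (limma adjusted p = 5.7e-06) and 1.65-fold in WT (adjusted p = 7.07e-05). Its other 2 tested probe sets fell in KO, by 0.30 and 0.25, and did not pass in WT. Celf5 (1434969_at, chromosome 10), a close relative in brain, had 10.05, 10.21 and 10.44 in KO polyribosomal RNA, against 10.51, 10.62 and 10.81 in KO total RNA. Its WT values were 10.04, 10.18 and 10.31 in polyribosomal RNA, against 10.48, 10.54 and 10.69 in total RNA. It was lower without overlap, by 1.34-fold in KO (limma adjusted p = 0.00124) and 1.32-fold in WT (adjusted p = 0.00206).

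Mbnl1 (1416904_at, chromosome 3), the muscleblind protein that is sequestered by CUG repeats in myotonic dystrophy, had 8.29, 8.53 and 8.99 in KO polyribosomal RNA, against 8.72, 8.94 and 9.03 in KO total RNA. The WT arrays gave 8.22, 8.45 and 8.98 in polyribosomal RNA, against 8.71, 8.83 and 9.17 in total RNA. The groups overlapped, with a fall in 5 of 6 KO and, as required for naming, 6 of 6 WT lysates. The size was 1.27-fold in KO (limma adjusted p = 0.0331) and 1.32-fold in WT (adjusted p = 0.00757). The KO call was lost without lysate 2, 3, 4 or 6 and with no filter on dim probe sets (adjusted p = 0.0563).

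Close relatives were compared at the probe set with the highest mean of each gene, so the results below are of those probe sets and not of whole genes. The difference between their polyribosomal minus total values was taken in each of the 12 lysates and tested with a two-sided exact sign-flip test. This was done for every pair of genes tested in both genotypes within the small families (Tra2, Celf, Elavl, Mbnl, Nova, Ptbp and Rbfox), which leaves out Celf3 and Mbnl3. Of 23 pairs, 20 had a Benjamini-Hochberg adjusted p under 0.05. Pairs of unrelated genes were not compared, so this count is not read as a trait of relatives. Same-numbered KO and WT lysates deviated together in total RNA (r of 0.132 to 0.538), so the 12 lysates may not be independent. With the replicate number as the unit, 17 pairs passed (adjusted exact p = 0.0423 for each), all with 1 sign in 6 of 6 numbers. Celf2 with Celf6, Celf4 with Celf5 and Elavl3 with Elavl4 then did not pass (adjusted exact p = 0.108, 0.0799 and 0.108). With the mean of each gene's tested probe sets, 15 of the 20 pairs passed in the same direction and 4 turned. The differences compare changes, not levels. Nova1 was below Nova2 by 0.96 ± 0.43 log2 units (SD, n = 12 lysates) and below it in all 12 (adjusted exact p = 0.000936). Rbfox2 exceeded Rbfox3 by 0.74 ± 0.34 in 12 of 12 (SD, adjusted exact p = 0.000936), and Rbfox1 was below Rbfox2 by 0.80 ± 0.27 in 12 of 12 (SD, adjusted exact p = 0.000936). Neither held with the mean of the tested probe sets, where Rbfox2 minus Rbfox3 turned to -0.38 ± 0.26 (SD, n = 12, adjusted exact p = 0.00281) and Rbfox1 minus Rbfox2 stood at -0.09 ± 0.27 (SD, n = 12, adjusted exact p = 0.281). Within the Hu proteins, Elavl1 exceeded Elavl4 by 0.88 ± 0.35 and Elavl2 exceeded it by 0.68 ± 0.24, each in 12 of 12 lysates (SD, adjusted exact p = 0.000936 each). Mbnl1 was below Mbnl2 by 0.57 ± 0.29 and above it in 1 lysate (SD, n = 12, adjusted exact p = 0.0015), although the Mbnl2 probe set 1433754_at, at -0.50 in KO and -0.55 in WT, lay below Mbnl1.

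In the Celf family, Celf1 exceeded Celf4 by 0.92 ± 0.25 and Celf2 exceeded it by 0.83 ± 0.16, in 12 of 12 lysates each (SD, adjusted exact p = 0.000936 each). Tra2a and Tra2b, which bind the same purine-rich enhancers, differed by 0.08 ± 0.09 (SD, n = 12, adjusted exact p = 0.00991). With the mean of the tested probe sets this difference took the opposite sign. That Tra2a mean includes 1455933_at, which passed the filter through total RNA only, so its size and test are not read. With the mean, Elavl3 with Elavl4 and Celf4 with Celf5 also turned, and did not pass (adjusted exact p = 0.22 and 0.791). Ptbp1, the repressor that gives way to Ptbp2 when neurons form, was below Ptbp2 by 0.24 ± 0.34 in 10 of 12 lysates (SD, adjusted exact p = 0.0408), although neither rose or fell past the threshold by itself. The 3 pairs that did not pass were Celf1 with Celf2, Celf1 with Celf6, and Rbfox1 with Rbfox3 (adjusted exact p = 0.102, 0.102 and 0.408).

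Probe sets of the same gene did not always move together. In WT, Tra2a, Hnrnpa2b1, Hnrnpdl and Mbnl2 had probe sets called in opposite directions. The part of a transcript that a probe set reads was not given in the sources used here, so transcript forms are not named. To test such gaps on separate arrays, the highest and lowest tested probe set of a gene in WT were compared within the 6 KO lysates. This was done for 34 genes with at least 2 tested probe sets. In 23 of them the WT order was found in 6 of 6 KO lysates (two-sided exact sign-flip p = 0.03125, the smallest that 64 sign patterns allow, Benjamini-Hochberg adjusted p = 0.0462). In 11 the adjusted p was not under 0.05. Neither these counts nor that of genes with opposite calls was made over all genes. They are therefore not read as particular to the members. The median gap was 0.49 log2 units in KO and 0.53 in WT, where the choice was made, and in 5 genes the WT gap was at least 1.

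Tra2a (chromosome 6) had the widest gap of the 34 genes. Its probe set 1454725_at had 11.22, 11.52 and 11.67 in KO polyribosomal RNA, against 10.86, 10.99 and 11.15 in KO total RNA. In WT that probe set had 11.27, 11.46 and 11.63 in polyribosomal RNA, against 10.84, 11.03 and 11.06 in total RNA. This probe set was higher in polyribosomal RNA without overlap, by 1.37-fold in KO (limma adjusted p = 0.000789) and 1.38-fold in WT (adjusted p = 0.000572).

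The Tra2a probe set 1442886_at had 4.35, 4.88 and 5.02 in KO polyribosomal RNA, against 6.24, 6.54 and 7.16 in KO total RNA. WT lysates gave 3.71, 4.51 and 4.88 in polyribosomal RNA, against 5.83, 6.61 and 7.09 in total RNA. It was lower without overlap, by 3.71-fold in KO (log2 -1.89, SE 0.17, limma adjusted p = 2.2e-06) and 4.41-fold in WT (log2 -2.14, SE 0.19, adjusted p = 2.82e-06). The gap between these Tra2a probe sets was 2.34 ± 0.60 in KO (SD, n = 6 lysates) and 2.61 in WT. The polyribosomal values of 1442886_at lay near the dim limit of 4, so the sizes of its fall and of this gap rest on a dim signal. A further Tra2a probe set, 1455933_at, was below 4 on all polyribosomal arrays and above 4 on all total arrays, so no fold is given for it. Averaged over its tested probe sets, Tra2a stood at -0.89 in KO and -0.93 in WT, the opposite sign of the probe set with its highest mean. This average includes 1455933_at, which passed the filter through total RNA only, so its size is not read.

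Hnrnpa2b1 (chromosome 6), which takes part in mRNA transport, showed a smaller split. The probe set 1433830_at had 7.40, 7.70 and 7.91 in KO polyribosomal RNA, against 8.01, 8.23 and 8.43 in KO total RNA, and 7.41, 7.76 and 7.99 in WT polyribosomal RNA, against 7.90, 8.32 and 8.39 in WT total RNA. It was lower, without overlap in KO and with overlap in WT, by 1.42-fold in KO (limma adjusted p = 0.000435) and 1.39-fold in WT (adjusted p = 0.000478). The probe set 1420365_a_at had 12.57, 12.84 and 12.96 in KO polyribosomal RNA, against 12.55, 12.60 and 12.69 in KO total RNA, and 12.70, 12.92 and 13.04 in WT polyribosomal RNA, against 12.55, 12.65 and 12.77 in WT total RNA. Its ranges overlapped, and it was higher by 1.15-fold in KO (limma adjusted p = 0.0419) and 1.20-fold in WT (adjusted p = 0.0195). The KO call of 1420365_a_at was lost without any of lysates 1, 2, 3, 4 and 6, and the WT call without lysate 1, 3 or 5.

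Hnrnpdl (chromosome 5), a relative of the AU-binding Hnrnpd, had 7 tested probe sets. Its probe set 1428224_at had 9.87, 10.37 and 10.47 in KO polyribosomal RNA, against 9.67, 9.73 and 9.79 in KO total RNA, and 9.90, 10.14 and 10.38 in WT polyribosomal RNA, against 9.37, 9.63 and 9.73 in WT total RNA. It rose without overlap, by 1.47-fold in KO (limma adjusted p = 0.000179) and 1.49-fold in WT (adjusted p = 0.000252). The probe set 1424252_at had 6.92, 7.11 and 7.37 in KO polyribosomal RNA, against 7.25, 7.36 and 7.57 in KO total RNA, and 6.78, 7.09 and 7.26 in WT polyribosomal RNA, against 7.20, 7.31 and 7.52 in WT total RNA. It fell, with overlapping ranges, by 1.20-fold in KO (limma adjusted p = 0.0244) and 1.21-fold in WT (adjusted p = 0.0321). The KO call of 1424252_at was lost without lysate 3 or 5, and its WT call without lysate 2, 3, 4 or 6 and under quantile normalization (adjusted p = 0.0624).

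Mbnl2 (chromosome 14), the muscleblind gene most linked to brain splicing, varied widely between lysates. The probe set 1433754_at had 9.01, 9.34 and 9.90 in KO polyribosomal RNA, against 9.31, 9.97 and 10.18 in KO total RNA, and 8.61, 9.50 and 9.98 in WT polyribosomal RNA, against 9.56, 10.03 and 10.40 in WT total RNA. The ranges overlapped, but all 12 lysates were lower in their polyribosomal array, by 1.41-fold in KO (limma adjusted p = 0.000822) and 1.46-fold in WT (adjusted p = 0.00181). The probe set 1436858_at had 6.35, 6.41 and 7.30 in KO polyribosomal RNA, against 5.72, 6.13 and 6.54 in KO total RNA, and 6.03, 6.74 and 7.54 in WT polyribosomal RNA, against 5.81, 6.19 and 6.72 in WT total RNA. Here all 12 lysates were higher in their polyribosomal array, by 1.37-fold in KO (limma adjusted p = 0.00951) and 1.41-fold in WT (adjusted p = 0.00699). With no lysate block the WT adjusted p was 0.0588.

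Other genes had probe sets that moved and others that did not pass. Celf1 (chromosome 2), a regulator of CUG-binding targets, stood at 0.15 in KO and 0.14 in WT at its probe set with the highest mean, which did not pass. Its other 4 tested probe sets rose in both genotypes, the farthest being 1425932_a_at at 1.19 in KO and 1.32 in WT (limma adjusted p = 7.53e-06 and 1.29e-05). Rbfox3 (chromosome 11), which encodes the neuronal marker NeuN, stood at -0.01 in KO and 0.02 in WT at 1436450_at. Its probe sets 1456149_at and 1427286_at rose, the first by 1.04 in KO and 1.03 in WT and the other by 1.17 in KO and 0.89 in WT (limma adjusted p of 1.58e-05 or less in each). Rbfox1 stood at -0.11 in KO and 0.001 in WT at 1455358_at, and at 0.59 in KO and 0.64 in WT at 1418314_a_at. Averaging its tested probe sets called Rbfox1 in both genotypes. The Hnrnpr probe set 1452030_a_at stood at 0.40 in KO and 0.65 in WT, and the Celf2 probe set 1439777_at at -0.43 and -0.44.

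Srsf10 (chromosome 4) had 1 probe set that fell, 1423982_at, at -0.64 in KO and -0.88 in WT (limma adjusted p = 4.29e-05 and 1.02e-05), while its other 3 did not pass. Srsf2 rose at all 4 tested probe sets, by 0.35 to 1.37 in KO and 0.47 to 1.33 in WT. Rbfox2 rose by 0.75 in KO and 0.73 in WT at 1418245_a_at, and its other 3 probe sets stood at 0.09 to 0.23 in KO, none of them called, and at 0.15 to 0.25 in WT, 1 of them called. Elavl3, a neuronal Hu protein, did not pass at the probe set with its highest mean and fell by 0.59 in KO and 0.74 in WT at 1455484_at (limma adjusted p = 8.14e-05 and 0.00067). The Hnrnpu probe set 1434390_at was below 4 on all polyribosomal arrays of both genotypes and was tested in KO only, so no fold is given for it.

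**Figure D3:**
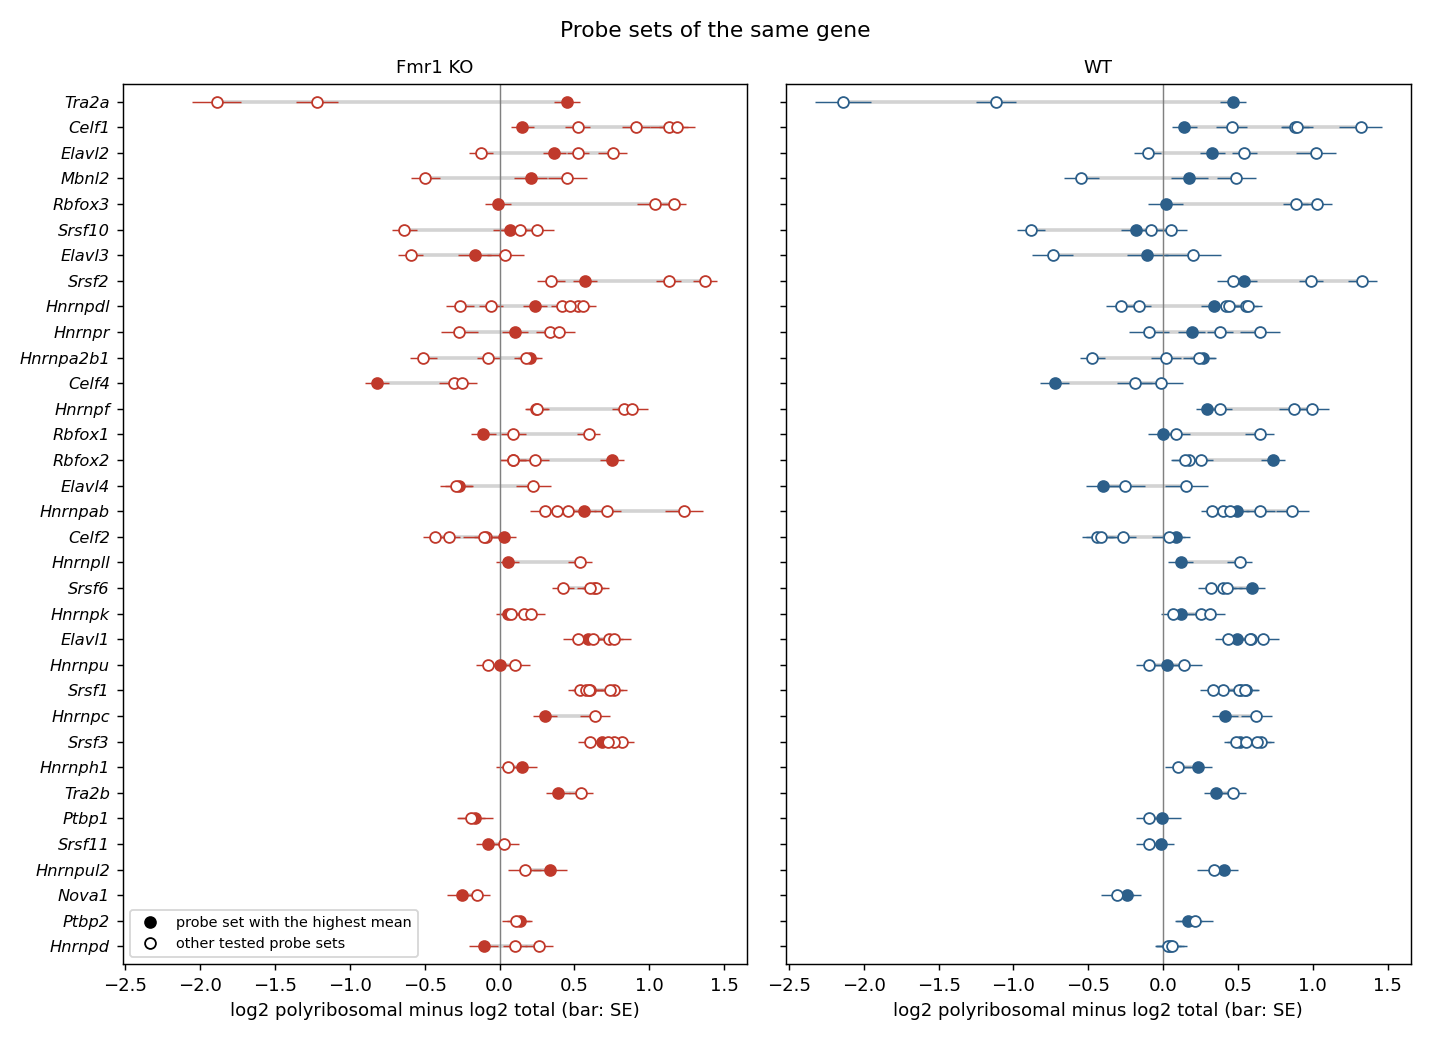
Log2 polyribosomal minus log2 total difference of each tested probe set (points, bars are SE, n = 6 lysates) for the 34 genes with at least 2 of them, KO left and WT right, with the probe set of highest mean filled. Tra2a spans from below -1.5 to above 0 in both panels, and most genes keep their spread of probe sets across genotypes.

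Genes that act with these regulators were taken from 3 lists: SR protein kinases, SR-related proteins, and other splicing regulators. Of 69 genes on the array 64 were tested, and in KO 22 rose and 17 fell, while in WT 25 rose and 13 fell (limma, against the shares over all genes given above). Their median was 0.10 in each genotype. Of 8 tested kinases 3 rose and 3 fell in each genotype. Clk3, a kinase that phosphorylates SR proteins, rose by 0.62 in KO and 0.63 in WT (limma adjusted p = 5.8e-05 and 0.000162). Its relative Clk1 fell by 0.47 in KO and 0.64 in WT (adjusted p = 0.00172 and 0.000486), and the spliceosomal kinase Prpf4b by 0.52 and 0.45 (adjusted p = 0.000652 and 0.011). These kinases were picked for the text after their values were seen.

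Of 16 SR-related genes 5 rose (31.2%) and 6 fell (37.5%) in KO, and 5 rose (31.2%) and 4 fell (25.0%) in WT. Of 40 other regulators 14 rose and 8 fell in KO, and 17 rose and 6 fell in WT. Across the lists the largest rises in WT were those of Raly, an hnRNP-like protein, at 1.15 in KO and 1.24 in WT, the cold-inducible Cirbp at 0.96 and 0.86, and Khdrbs2, a neuronal relative of Sam68, at 1.00 and 0.77. The largest falls in WT were those of the cold shock protein Ybx1 at -1.12 in KO and -1.03 in WT, of Pnn, a nuclear speckle protein, at -1.03 and -0.78, and of Rbm25 at -0.75 and -0.71. These 6 genes had 1 direction throughout the 12 lysates (limma adjusted p between 4.74e-07 and 0.000497).

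The second question was whether the loss of Fmr1 changed these mRNAs. No member passed in either RNA kind. In polyribosomal RNA limma called 0 of 134 member probe sets, where 0.017% of all 17687 were called. At an unadjusted p under 0.05 there were 6, or 4.48% of them, of which 5 had higher and 1 lower values in KO, against 2.67% over all probe sets. In total RNA limma called 0 of 137, where 0.0392% of all 17850 were called, and 1 had an unadjusted p under 0.05. With 1 probe set per gene, 0 of 49 and 0 of 48 genes were called and 0 had an unadjusted p under 0.05 in each (limma). The median 95% half-width of a member gene's difference was 0.23 in polyribosomal and 0.13 in total RNA. These intervals are not adjusted for the number of tests. A call would need a change larger than the half-width, so changes somewhat above these sizes could also be missed.

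In polyribosomal RNA the genes with the smallest p were Nova2, Srsf12 and Srsf3. Nova2 had the values given above, with a highest KO array of 6.99 and a highest WT array of 6.30, and the ranges overlapped. It stood at 0.39 (95% interval up to 0.78, limma unadjusted p = 0.0521, adjusted p = 1.0), higher in KO in 4 of 6 same-numbered pairs. Srsf12 stood at 0.24 (SE 0.13, unadjusted p = 0.0914) and Srsf3 at 0.16 (SE 0.11, unadjusted p = 0.156), each higher in KO in 5 of 6 pairs (limma adjusted p = 1.0 for both). Their KO and WT ranges also overlapped.

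The 6 probe sets with an unadjusted p under 0.05 in polyribosomal RNA were those of Celf1 at 0.25, Rbfox3 at 0.27, Srsf1 at 0.27, Srsf6 at 0.24, Hnrnpab at 0.33 and Hnrnpr at -0.35 (limma adjusted p = 1.0 for each). None of them was the probe set with the gene's highest mean. The Rbfox3 probe set was 1427286_at, with 9.31, 9.49 and 9.80 in KO polyribosomal RNA, against 9.09, 9.21 and 9.52 in WT polyribosomal RNA, and the ranges overlapped. The Celf1 probe set was 1426408_at, with 7.79, 7.94 and 8.22 in KO, against 7.58, 7.70 and 7.97 in WT, also overlapping.

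In total RNA the smallest p among genes belonged to Hnrnpul1, an hnRNP U relative, to Celf6 and to Srsf5. Hnrnpul1 (1451984_at, chromosome 7) had 9.43, 9.49 and 9.58 in KO total RNA, against 9.32, 9.41 and 9.49 in WT total RNA. Ranges overlapped, and it stood at 0.08 (SE 0.05, limma unadjusted p = 0.121, adjusted p = 0.998), higher in KO in 6 of 6 pairs. Celf6 (1429790_at, chromosome 9), a Celf protein of brain, had 7.27, 7.38 and 7.63 in KO total RNA, against 7.43, 7.51 and 7.58 in WT total RNA. Srsf5 (1423130_a_at, chromosome 12), an SR protein that responds to insulin, had 9.81, 10.03 and 10.29 in KO total RNA, against 9.88, 10.17 and 10.24 in WT total RNA. Both overlapped and stood at -0.08 and -0.10 (limma adjusted p = 0.998 for both). The 1 member probe set with an unadjusted p under 0.05 was 1428224_at of Hnrnpdl, at 0.16 and higher in KO in 6 of 6 pairs (limma adjusted p = 0.982).

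**Figure D4:**
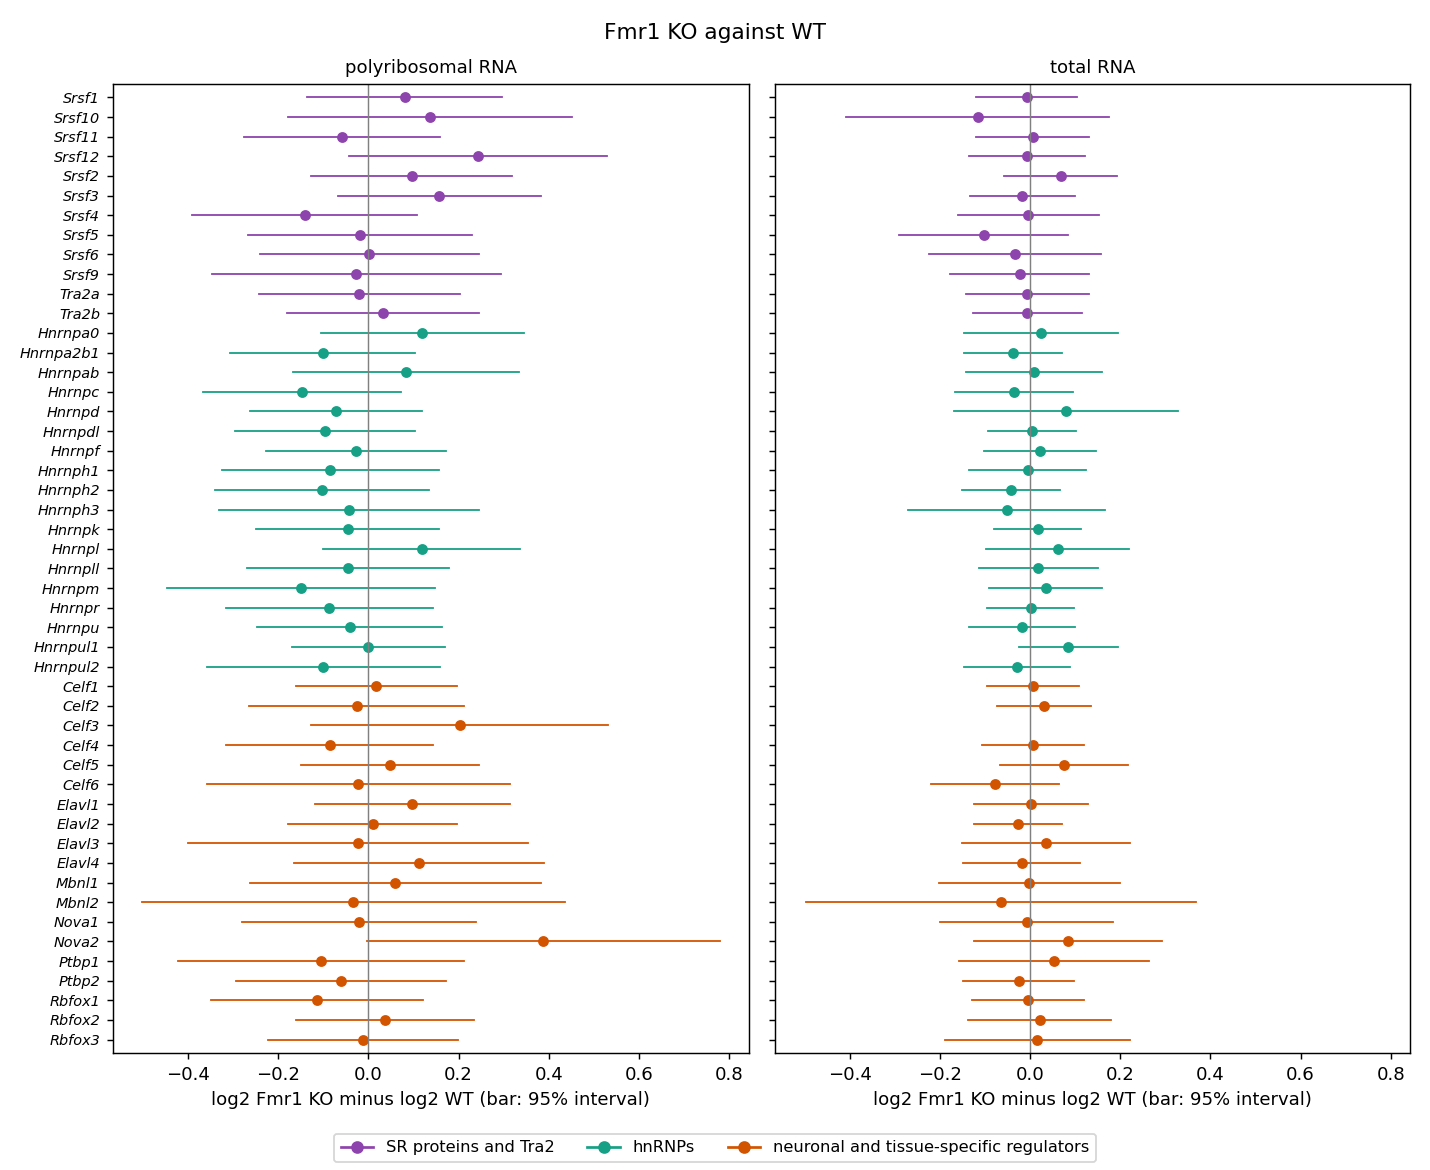
Log2 KO minus log2 WT of each tested member gene (point) with its 95% interval (bar), in polyribosomal RNA left and total RNA right, 6 against 6 arrays, coloured by role. All intervals include 0, and they are wider in polyribosomal RNA.

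The test of whether the polyribosomal minus total difference itself differs between genotypes also called no member. Limma called 0 of 139 member probe sets and 0% of all 18544. The 1 member with an unadjusted p under 0.05 was 1427286_at of Rbfox3, at 0.28 (SE 0.11, limma adjusted p = 0.999). The genes with the smallest p were Srsf12 at 0.25 (SE 0.13), Srsf3 at 0.17 (SE 0.10) and Srsf10 at 0.25 (SE 0.15), with unadjusted p = 0.0716, 0.11 and 0.122 (limma adjusted p = 0.999 for each). Srsf10 (1418527_a_at) had 8.68, 9.05 and 9.41 in KO polyribosomal RNA, against 8.25, 9.08 and 9.19 in KO total RNA, and 8.52, 8.86 and 9.24 in WT polyribosomal RNA, against 8.91, 9.09 and 9.23 in WT total RNA. All its ranges overlapped.

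By role and counted by probe set, the SR group had mostly values above 0 in KO polyribosomal RNA and in the difference between genotypes, with no member called. In polyribosomal RNA 27 of its 33 probe sets were above 0 (81.8%) with a median of 0.12, against 9295 (52.6%) and a median of 0.01 over all 17687 probe sets. In total RNA 13 of 35 (37.1%) were above 0 with a median of -0.01, against 43.3% of all probe sets. Under quantile normalization these were 21 of 35 with a median of 0.01, against 51.4% of all, so no direction is given there. In the polyribosomal minus total difference 29 of 35 (82.9%) were above 0 with a median of 0.13, against 56.3% and a median of 0.02 over all probe sets. When 1 replicate number at a time was left out, 25 to 29 of 33 in polyribosomal RNA and 26 to 29 of 34 or 35 in the difference stayed above 0. With 1 probe set per gene, 7 of 12 SR genes were above 0 with a median of 0.02 in polyribosomal RNA. This was near the background of 5198 of 9664 genes and a median of 0.01. In the difference 8 of 12 SR genes were above 0 with a median of 0.04, against 5621 of 9955 genes and 0.02. Probe sets of a gene are not independent, and these counts were not tested.

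The hnRNP probe sets leaned the other way in polyribosomal RNA, with 18 of 50 (36.0%) above 0 and a median of -0.04, against 52.6% of all probe sets. Without the number 5 lysates, which include the KO polyribosomal array with the lowest correlation to its group, 31 of 49 (63.3%) were above 0 with a median of 0.02, against 51.6% of all, so the direction of the hnRNP group rested on that number. The SR group then had 29 of 33 above 0. With 1 probe set per gene and all lysates, 3 of 18 hnRNP genes were above 0, against 5198 of 9664 over all genes. In the neuronal families 25 of 51 probe sets were above 0 in polyribosomal RNA, and 34 of 51 without the number 5 lysates.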

How the data were processed

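The deposited values are log2 signals per probe set, made by the authors with GCRMA, per the submitters' processing notes. This method corrects background, normalizes between arrays and summarizes probes. Its version is not given in the sources used here, and the log2 scale was judged from the values. Equal RNA amounts (10 µg) went into labelling, per the labels' protocols, so differences are relative to each pool. Gene symbols come from the platform annotation. All 50 symbols matched RefSeq (GRCm38.p6), from which chromosomes are taken. The number of arrays limits the precision, and replicates are lysates of pooled mice.

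Probe sets at 4 or more in at least 6 of the arrays compared were tested over the whole array with limma 3.58.1 in R 4.3.3 (lmFit, eBayes, two-sided, Benjamini-Hochberg, threshold 0.05). The 5 comparisons were polyribosomal against total RNA in KO and in WT, with the lysate as a block, KO against WT in each RNA kind, and KO against WT in the 12 polyribosomal minus total differences. The script was tested on simulated data. Polyribosomal and total arrays of one number come from the same lysate per the labels, and their deviations correlated at 0.159 to 0.483 in KO and 0.02 to 0.532 in WT. Between genotypes, same-numbered deviations had r of 0.132 to 0.538 in total RNA, where every pair was above 0.1, and of -0.143 to 0.63 in polyribosomal RNA. The number as a block for genotype was an alternative, as no label ties it to a littermate pair.

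Named members were, per role, the 4 largest rises and falls in WT among called genes of 1 direction in 6 of 6 lysates, genes with opposite calls in WT, and the 3 smallest p of each genotype comparison. Named genes outside the members were the 3 largest rises and falls in WT. Other named probe sets, the exact sign-flip tests and the counts by role were chosen after the data were seen. The members and lists were chosen with earlier results of these data known. One gene symbol with a listed prefix is not reported here. Alternatives were the dim filter, quantile normalization, eBayes with trend, 1 fit over 24 arrays, the block, the mean of a gene's probe sets, no _x_at, _s_at or _a_at probe sets, and leaving out each replicate number. Python 3.11.15 with matplotlib 3.10.9 was used for the plots.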

Additional observations from a re-analysis of the deposited data

Results flagged for a closer look

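In 5 of 120 groups of named probe sets, 1 array lay far from the other 5 (Dixon's test, which flags about 1 in 20 groups by chance, here 4.17%). KO array 3 was the one in 3 of them. In polyribosomal RNA it had Elavl1 at 9.23, where the other KO arrays had 9.51 to 9.65, and Mbnl2 (1436858_at) at 7.30, where the others had 6.35 to 6.57. In KO total RNA array 3 had Srsf10 (1418527_a_at) at 8.25, where the others had 9.03 to 9.19. WT polyribosomal array 3 had Hnrnph3 at 8.98, where the others had 9.48 to 9.68. WT total array 6 had Tra2a (1454725_at) at 10.84, where the others had 11.02 to 11.06. The cause was not tested.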

How the results depend on the processing

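The counts of member genes higher or lower in polyribosomal RNA stayed within 1.5 times under the alternatives, except the count lower in KO. That count was 7 with all lysates, and with 1 lysate left out it ran from 4, without lysate 2 or without lysate 6, to 7. Counts of members called between genotypes were 0 under all alternatives (limma), including the replicate block. With no replicate block (lysate) 27 genes were called in KO and 29 in WT, against 29 and 30 with it. Of 820 values of named probe sets under alternatives, 817 kept their direction, and 26 of these lost their call. The 3 that turned came from averaging a gene's tested probe sets. Tra2a then stood at -0.89 in KO and -0.93 in WT, sizes not read as said above, and Hnrnpa2b1 at -0.0512 in KO (limma adjusted p = 0.573). This follows from their probe sets that fell. Averaging called 33 genes in each genotype. The KO count includes Hnrnpu, whose average holds 1434390_at, a probe set that passed the filter through total RNA only. Leaving out _x_at, _s_at and _a_at probe sets called 27 in each, with Elavl2 and Rbfox2 lost and 1 gene turned in both. Srsf5 and Tra2b have no tested probe set outside these kinds, so they could not be called there. The shares over all genes under the alternatives are not given, so these counts are not read as a trait of the members. Of the pairs of relatives 20 of 23 passed, 17 with the replicate number as the unit and 20 with the mean of the tested probe sets, of which 15 in the same direction, both chosen after seeing the data. The 20 by the mean include Tra2a with Tra2b, which is not read. Celf3, Nova1, Celf6 and Hnrnph1 lost their call under several alternatives. The limits are 6 lysates per genotype, dim probe sets near 4, and probe sets whose place in the transcript is not given.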
